A study of Homo sapiens with 12 samples.

Results

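NRF2, the protein of the gene NFE2L2, is a transcription factor that turns on antioxidant and detoxifying genes. RNA reads of NFE2L2 and of 8 of its known target genes are described here: HMOX1, NQO1, GCLM, GCLC, TXNRD1, SRXN1, PRDX1 and ME1. The 9 genes were taken by name as known members of the pathway, with earlier results of these data known. They are 9 of 15414 genes listed in either compartment, and all 9 had a row in both. RNA was sequenced from AC16 and from the exosomes, small secreted membrane vesicles, of AC16. AC16, an established human line, comes from the fusion of ventricular heart muscle cells with transformed fibroblasts, so it divides and is not heart tissue. The 12 libraries form 4 groups of 3, since whole cells and exosomes each have a Con and an Ang group. What Con and Ang stand for is not written out in the labels, which name no dose, time or culture medium; the series' design text speaks of hypertrophic cardiomyocytes and the RNA of their exosomes. No label ties the 3 libraries of a group to separate cultures, and the p-values therefore cover the spread between libraries only, which may be technical. Cell and exosome libraries were made with different kits, so compartment and kit cannot be told apart.

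In resting cells the adaptor KEAP1 holds NRF2 and passes it to a ubiquitin ligase, and NRF2 is degraded. Oxidants and electrophiles modify KEAP1, NRF2 then accumulates, pairs with a small MAF protein (MAFF, MAFG or MAFK) and binds antioxidant response elements, while BACH1 competes for the same sites. Because this control acts on the protein, the read level of NFE2L2 does not measure NRF2 activity. The targets have different jobs. HMOX1 cleaves heme and NQO1 reduces quinones. GCLC and GCLM are the catalytic and modifier subunits of glutamate-cysteine ligase, which carries out the rate-limiting step of glutathione synthesis. TXNRD1 reduces thioredoxin with NADPH, SRXN1 repairs over-oxidised peroxiredoxins, PRDX1 removes hydrogen peroxide, and ME1 makes NADPH from malate. In heart muscle the pathway is known mainly for protection against oxidative injury.

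The core of the antioxidant response element is TGACNNNGC, where N is any base. Its letters overlap those of the AP-1 element, TGACTCA. Promoter windows from RefSeq (build GRCh38.p14), each of 300 bases from 250 before to 50 after a start site, were searched on both strands. The table held 9 windows for 7 of the genes, and HMOX1 and PRDX1 had no entry. The core occurred in 4 of the 9 windows, in 3 genes (GCLM, ME1 and TXNRD1), and in 4687 of all 35116 windows (13.3%). The matches are shown because these are the letters NRF2 is known to bind. Capitals mark the core, or its reverse complement where it lies on the opposite strand, with 20 bases on each side, read along the gene's strand.
GCLM, chr1:93909436-93909484, minus strand: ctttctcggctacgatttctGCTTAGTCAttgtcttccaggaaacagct
ME1, chr6:83431160-83431208, minus strand: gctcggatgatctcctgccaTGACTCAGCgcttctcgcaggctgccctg
ME1, chr6:83431012-83431060, minus strand: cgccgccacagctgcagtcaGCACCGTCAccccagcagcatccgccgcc
TXNRD1, chr12:104215660-104215708, plus strand: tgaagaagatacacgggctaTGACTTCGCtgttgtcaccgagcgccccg
TXNRD1, chr12:104215751-104215799, plus strand: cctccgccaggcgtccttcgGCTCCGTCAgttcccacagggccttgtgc
TXNRD1, downstream start, chr12:104286910-104286958, plus strand: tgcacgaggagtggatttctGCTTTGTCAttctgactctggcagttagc
Counted from the start site, the GCLM core lay at -34 to -26, those of ME1 at -137 to -129 and at 12 to 20, and those of the upstream TXNRD1 start at -99 to -91 and at -8 to 1. The core in the other TXNRD1 window lay at -102 to -94. The first ME1 match holds the AP-1 letters whole. The windows of NFE2L2, NQO1, GCLC and SRXN1 held no match, which says only that these letters are not within those bases. A match is a run of letters, not a shown binding site.

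Gene reads per library ran from 9202471 to 11212674 in cells, from 717263 to 745311 in Con exosomes and from 535442 to 587783 in Ang exosomes. The common spread between libraries of a group (biological coefficient of variation, edgeR) was 0.227 in cells and 0.423 in exosomes. Of 13 cardiomyocyte markers, 8 had a row in the cells. TNNT2 had 0 to 9 reads and NKX2-5 0 to 4, while GATA4 had 239 to 335; TNNC1, MYH6, MYL7, MYL4 and TBX5 were not listed. In exosomes 2 of the 13 were listed. All 9 fibroblast or stromal markers were listed in cells. Their summed levels were 6993 to 7487 CPM (reads per 1000000 gene reads, after scaling) in Con and 6073 to 7155 in Ang. The 8 listed cardiomyocyte markers summed to 35.2 to 38.02 CPM in Con cells and 37.76 to 42.39 in Ang cells. Stromal reads ran from 51 to 63 for POSTN, 145 to 202 for DCN and 175 to 228 for LUM up to 25706 to 37354 for COL1A1. The stromal sums thus rest mainly on the most abundant genes. The part of these marker levels in the results below was not tested.

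Among the 9 genes, 3 enzymes of quinone, peroxide and thioredoxin reduction stood far above the rest in both compartments. Levels between genes were compared per kilobase of exon (RPKM) on the scaling shared by all 12 libraries, as mean ± SD over 6 libraries. In cells NQO1 led with 184 ± 7.55, followed by PRDX1 with 153 ± 5.15 and TXNRD1 with 139 ± 7.71. PRDX1 and TXNRD1 overlapped between libraries, and NQO1 overlapped neither. A wide gap followed. ME1 stood at 16.8 ± 1.88, NFE2L2 at 14.8 ± 1.67 and SRXN1 at 12.1 ± 0.434 RPKM, with ME1 and NFE2L2 overlapping. GCLM (5.63 ± 0.208), HMOX1 (3.90 ± 0.352) and GCLC (3.44 ± 0.355) were the lowest, and the last pair overlapped.

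The same 3 genes led in exosomes, in another order: PRDX1 at 106 ± 22.4, NQO1 at 89.5 ± 13.8 and TXNRD1 at 72.6 ± 7.37 RPKM. Each overlapped with its neighbour in the order. Below another gap came SRXN1 (17.9 ± 10.3), NFE2L2 (15.3 ± 10.7), ME1 (10.9 ± 4.04), HMOX1 (7.51 ± 4.01), GCLM (6.09 ± 1.88) and GCLC (2.23 ± 0.657), all overlapping with their neighbours. The order depends on the length used. With the longest coding transcript in place of all exons, TXNRD1 was the highest in cells at 219 RPKM and GCLC, at 7.80, passed GCLM and HMOX1.

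**Figure D1:**
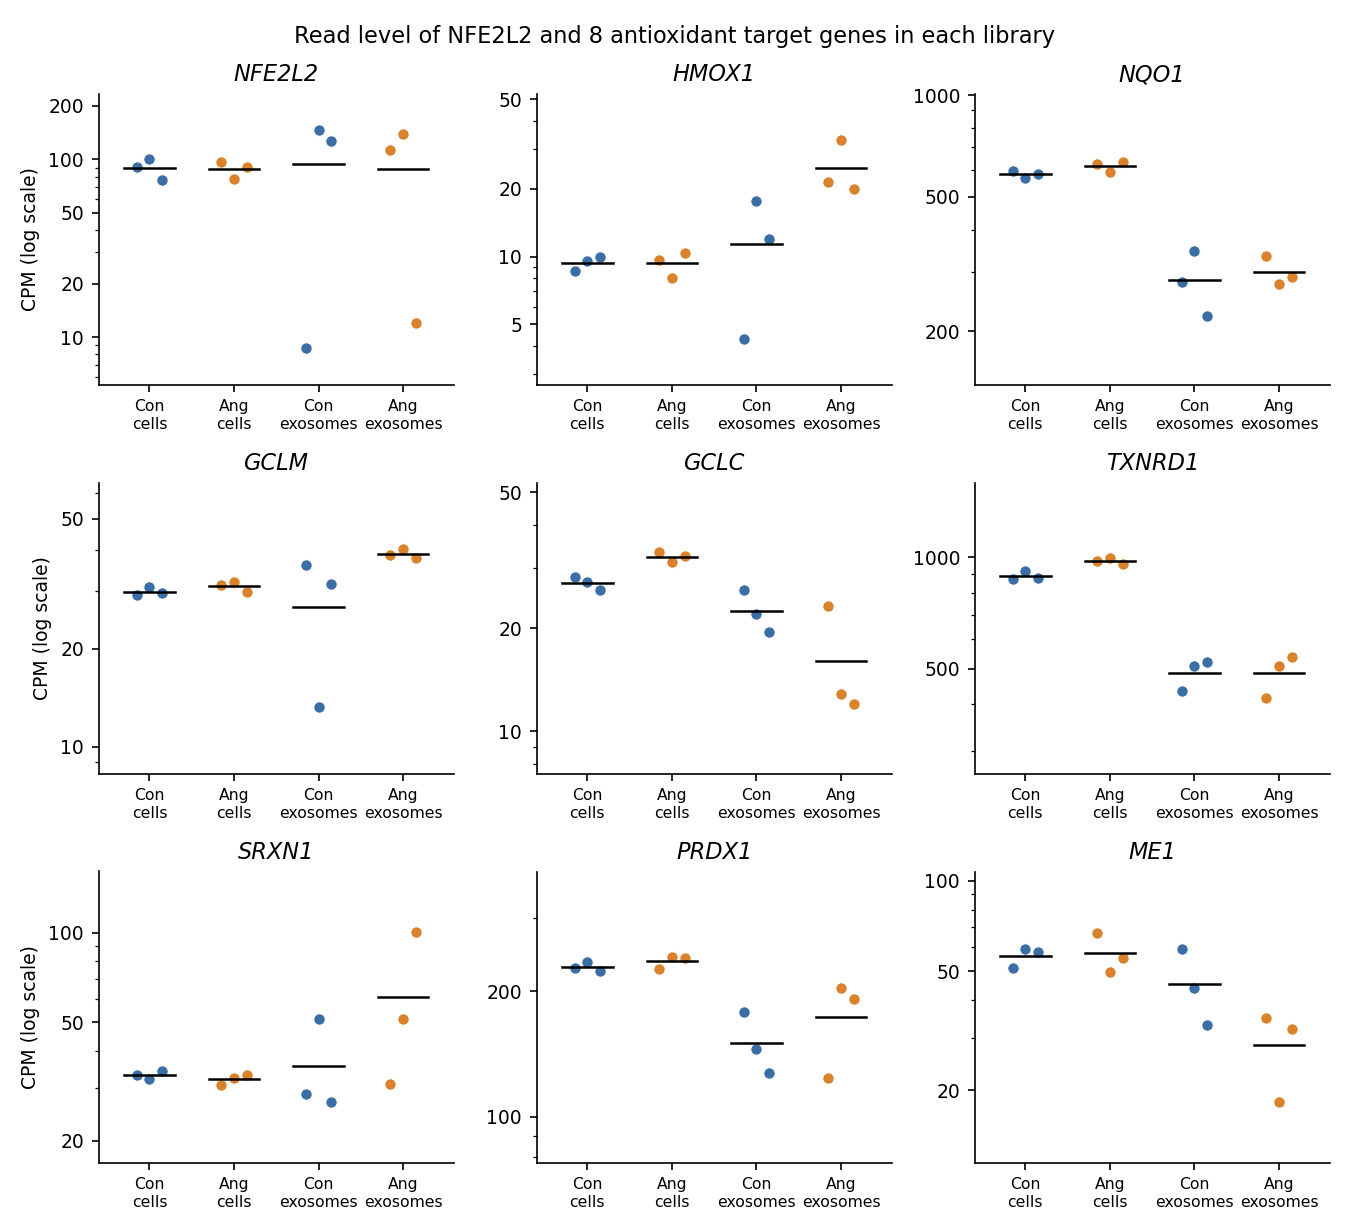
Level of each gene in CPM (log axis, scaled over all 12 libraries) in each of the 12 libraries, with 3 points per group and a bar at the group mean. NQO1, TXNRD1 and PRDX1 sit lower in all 6 exosome libraries than in any cell library, and NFE2L2 has 1 very low library in each exosome group.

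In cells, none of the 9 genes passed the test between Ang and Con. The edgeR quasi-likelihood test with Benjamini-Hochberg adjustment called 0 of 13331 genes tested (0%) at an adjusted p of 0.05, with 816 genes (6.12%) at an unadjusted p under 0.05. DESeq2 called 47 genes, and 0 of them were among the 9. The regulator NFE2L2 stood at 91.0, 100.4 and 76.1 CPM in Con and at 96.4, 77.2 and 91.2 CPM in Ang, and the groups overlapped. Its log2 fold change was -0.02 (SE 0.136, edgeR adjusted p 0.983), with a 95% interval from -0.36 to 0.31.

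The largest values in cells were those of the catalytic subunit of glutathione synthesis and of thioredoxin reductase. GCLC stood at 28.3, 27.2 and 25.8 CPM in Con and at 33.3, 31.3 and 32.6 CPM in Ang. All 3 Ang libraries were above all 3 Con libraries. Its log2 fold change was 0.25 (SE 0.0758, 95% interval 0.06 to 0.44, edgeR adjusted p 0.795). TXNRD1 stood at 872, 921 and 881 CPM in Con and at 978, 997 and 960.5 CPM in Ang, again without overlap. Its log2 fold change was 0.13 (SE 0.0393, 95% interval 0.03 to 0.22, edgeR adjusted p 0.795). These were the 2 of the 9 with an unadjusted p under 0.05 and the 2 whose groups did not overlap. Over all genes tested, the groups did not overlap for 13.9%.

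The modifier subunit GCLM did not show the values of its partner. GCLM ranged from 29.3 to 31.0 CPM in Con and from 29.7 to 32.1 CPM in Ang, with a log2 fold change of 0.04 (95% interval -0.14 to 0.23). HMOX1 stood at 8.63, 9.58 and 9.91 CPM in Con and 9.68, 8.07 and 10.3 CPM in Ang, with a log2 fold change of -0.01 (95% interval -0.35 to 0.32). NQO1 had 567 to 594 CPM in Con and 591 to 631 CPM in Ang, with a log2 fold change of 0.07 (95% interval -0.03 to 0.18). The groups overlapped for each of these genes. The peroxiredoxin PRDX1 (0.04), its repair enzyme SRXN1 (-0.05) and the NADPH source ME1 (0.02) had log2 fold changes near 0, with groups that overlapped. The median over the 9 genes was 0.04, against a median of 0.00 over all genes tested. In bulk libraries, fewer cells of a type and less RNA per cell cannot be told apart.

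In exosomes, too, none of the 9 genes passed the test between Ang and Con, and the intervals were far wider. edgeR called 1 of 8327 genes tested (0.012%), with 316 (3.79%) at an unadjusted p under 0.05 and 0 of the 9 among these. DESeq2 called 16 genes, and again 0 of the 9. The edgeR adjusted p was 0.999 for each of the 9. The largest value was that of HMOX1, the heme-cleaving enzyme. HMOX1 had 3, 12 and 8 reads in Con exosomes and 11, 18 and 10 reads in the shallower Ang exosomes, or 4.32, 17.6 and 12.01 CPM against 21.4, 33.1 and 20.02 CPM. All 3 Ang libraries were above all 3 Con libraries in CPM. The log2 fold change was 1.13 (SE 0.721), with an interval from -0.48 to 2.74.

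GCLM was the other gene whose groups did not overlap, at 36.0, 13.2 and 31.5 CPM in Con and 38.8, 40.4 and 38.0 CPM in Ang exosomes. The low Con library held 9 reads. The log2 fold change was 0.54 (SE 0.513), with an interval from -0.61 to 1.68. Over all genes tested in exosomes, the groups did not overlap for 10.8%. GCLC, on 6 to 18 reads, stood at 25.9, 22.0 and 19.5 CPM in Con and 23.3, 12.9 and 12.01 CPM in Ang. Its groups overlapped and its log2 fold change was -0.48 (SE 0.622, interval -1.87 to 0.91). For the sulfiredoxin SRXN1 the log2 fold change was 0.77 (SE 0.526). In Ang, 1 library at 100.1 CPM stood apart from the other 5, which ran from 27.0 to 51.4 CPM. Without Con library 1 and Ang library 3, the pair low in NFE2L2 and left out after their values were seen, the SRXN1 value was 0.08.

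The abundant targets were estimated more closely. TXNRD1 stood at 435, 508 and 519.5 CPM in Con exosomes and 415, 507 and 537 CPM in Ang exosomes, and the groups overlapped almost completely. Its log2 fold change was 0.00 (SE 0.165, interval -0.37 to 0.37). NQO1 ranged from 222 to 346 CPM in Con and from 276 to 334 CPM in Ang, with a log2 fold change of 0.09 (SE 0.218, interval -0.40 to 0.58). PRDX1 had a value of 0.21 (SE 0.284, interval -0.42 to 0.85) and ME1 of -0.67 (SE 0.480, interval -1.74 to 0.40), both with groups that overlapped. Each interval gives the range of changes that these libraries leave possible. The part of read depth in the width of the intervals was not tested.

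**Figure D2:**
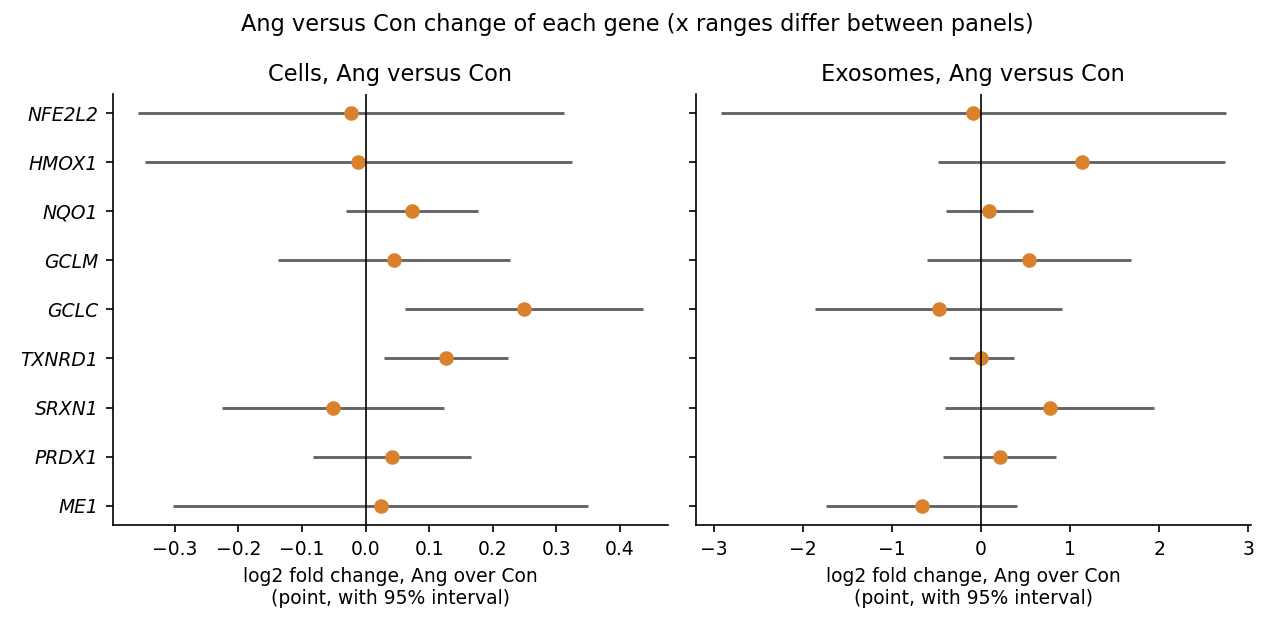
Log2 fold change of Ang over Con for each gene, as a point with its 95% interval, in cells (left) and in exosomes (right, wider axis). In cells only the GCLC and TXNRD1 intervals lie above 0 before adjustment, and in exosomes every interval includes 0.

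Between exosomes and cells, 5 of the 9 genes differed. NQO1, TXNRD1, PRDX1, ME1 and GCLC had lower levels in exosomes, and 0 of the 9 passed the test as higher. edgeR called 4380 of 11811 genes tested (37.1%) at an adjusted p of 0.05, 2298 of them lower (19.5%) and 2082 higher (17.6%). The median log2 difference was -0.52 over the 9 genes and -0.15 over all genes tested. Compared by library totals alone, the median of all genes was -0.36 and the calls split into 1546 higher and 3318 lower genes. The same 5 of the 9 were called, and their values relative to the median of all genes stayed within 0.01. That closeness follows from the scaling, which moves all genes by nearly the same amount, and is no test of the calls.

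The quinone reductase NQO1 differed most. It ranged from 567 to 631 CPM in the 6 cell libraries, with a median RPKM of 182, and from 222 to 346 CPM in the 6 exosome libraries, with a median RPKM of 87.5. No exosome library reached a cell library. The log2 difference was -1.04 (SE 0.109, edgeR adjusted p 1.5e-05), 2.06-fold lower. TXNRD1 ranged from 872 to 997 CPM in cells and from 415 to 537 CPM in exosomes. Its log2 difference was -0.94 (SE 0.0835, edgeR adjusted p 3.7e-06), 1.92-fold lower, again without overlap. Both genes kept these calls in every alternative run, with log2 differences from -1.26 to -0.95 for NQO1 and from -1.15 to -0.87 for TXNRD1.

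The peroxidase PRDX1 was also lower without overlap. It stood between 223 and 242 CPM in cells. The exosome libraries held 178, 145 and 128 CPM in Con and 124, 204 and 192 CPM in Ang. The log2 difference was -0.52 (SE 0.140, edgeR adjusted p 0.0114), 1.44-fold lower. In all 3 of these genes every cell library was above every exosome library. Groups did not overlap, with exosomes lower, for 13.1% of all genes tested. In the Con libraries alone PRDX1 passed, at -0.59 (edgeR adjusted p 0.0466), and in the Ang libraries alone it did not, at -0.44 (adjusted p 0.193).

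The calls of ME1 and GCLC were less firm. ME1 ranged from 49.4 to 67.0 CPM in cells. The exosome libraries held 59.0, 44.0 and 33.0 CPM in Con and 34.9, 18.4 and 32.04 CPM in Ang. The log2 difference was -0.66 (SE 0.209, edgeR adjusted p 0.026), and 1 Con exosome library lay within the cell range. The call was lost, at adjusted p from 0.0512 to 0.0725, without cell library Con 2, Con 3, Ang 1 or Ang 3. GCLC ranged from 25.8 to 33.3 CPM in cells and from 12.01 to 25.9 CPM in exosomes, touching by the lowest cell and the highest exosome library. Its log2 difference was -0.64 (SE 0.222, edgeR adjusted p 0.0385). This call was lost without any 1 of the 6 cell libraries (adjusted p 0.070 to 0.0846) and without exosome library Con 3, Ang 2 or Ang 3 (0.0517 to 0.055). It was also lost with cell libraries thinned to the exosome depth (adjusted p 0.177) and with a replicate block (0.0591). In Con libraries alone the value was -0.26 for GCLC and -0.30 for ME1. In Ang libraries alone the values were -1.004 and -1.005, and neither gene passed in either set.

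The remaining genes were not called. HMOX1 had a log2 difference of 0.84 (SE 0.324, interval 0.14 to 1.54, edgeR adjusted p 0.0595). Its exosome libraries spanned 4.32 to 33.1 CPM around a cell range of 8.07 to 10.3 CPM. HMOX1 passed as higher without exosome library Con 1 (adjusted p 0.0108), Ang 1 (0.0493) or Ang 3 (0.0463), and with DESeq2 (0.000514). It passed in the Ang libraries alone, at 1.42 (edgeR adjusted p 0.0443), and not in the Con libraries alone, at 0.27 (0.746). SRXN1 had a log2 difference of 0.51 (SE 0.265, interval -0.07 to 1.08, edgeR adjusted p 0.151), and passed as higher without exosome library Ang 1 (0.0372). Most of the SRXN1 exons, 85.0% of their bases, also belong to the same-strand gene AL121758.1 in GENCODE release 29, and how shared reads were counted is not given in the sources used here. GCLM, at 0.09 (interval -0.40 to 0.58), and NFE2L2, at 0.04 (interval -1.13 to 1.21), had differences that turned negative by library totals (-0.12 and -0.18). Of the 3 genes with the response element core in the windows above, TXNRD1 and ME1 were lower and GCLM was not called; NQO1, PRDX1 and GCLC were lower with no match or no window.

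**Figure D3:**
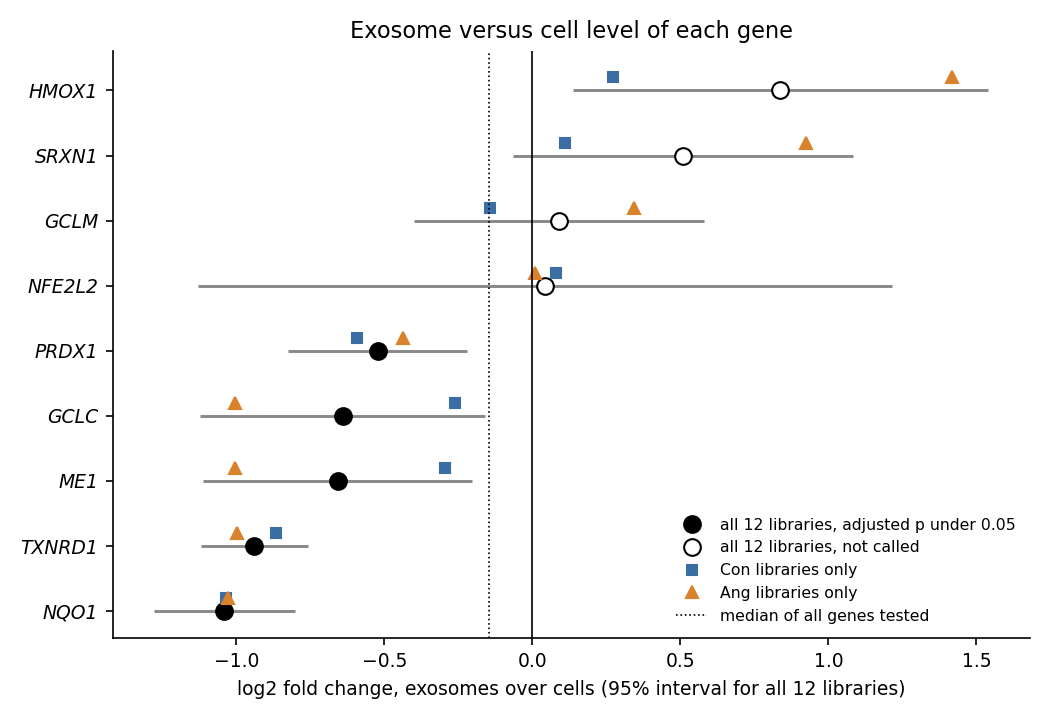
Log2 difference of exosomes over cells for each gene: circles with 95% intervals for all 12 libraries (filled where the edgeR adjusted p was under 0.05), squares for Con libraries only and triangles for Ang libraries only. The 5 filled circles, from NQO1 at -1.04 to PRDX1 at -0.52, lie left of the dotted median of all genes at -0.15, and the signs of GCLM and NFE2L2 depend on the scaling.

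A term of the 12-library fit tested whether Ang differed from Con by another amount in exosomes than in cells. edgeR called 3 of 11811 genes (0.0254%) and 0 of the 9, with 971 genes (8.22%) and 0 of the 9 at an unadjusted p under 0.05. DESeq2 called 368 genes and 0 of the 9. The largest differences of change were those of HMOX1 at 1.14 (SE 0.641, edgeR adjusted p 0.690), SRXN1 at 0.81 (SE 0.529, adjusted p 0.757), GCLC at -0.74 (SE 0.446, adjusted p 0.710) and ME1 at -0.71 (SE 0.419, adjusted p 0.705). The intervals of all 9 genes included 0. For TXNRD1 the interval was the narrowest, from -0.50 to 0.22.

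The ratio of the glutamate-cysteine ligase subunits, GCLM over GCLC, lay lower in Ang than in Con cells and higher in Ang than in Con exosomes. Per length of all exons, GCLM stood at 1.65, 1.81 and 1.83 times GCLC in Con cells and at 1.498, 1.64 and 1.46 times in Ang cells. Every Ang cell library lay below every Con cell library. In exosomes the ratio was 2.22, 0.957 and 2.58 in Con and 2.66, 5.01 and 5.05 in Ang, so that every Ang library lay above every Con library. The exosome ratios rest on 9 to 25 reads of GCLM and 6 to 18 of GCLC. The closest libraries were Con 3, with 21 and 13 reads, and Ang 1, with 20 and 12, so the separation rests on very few reads. With longest coding transcripts as lengths, the ratio ran from 0.717 to 0.899 in cells and from 0.471 to 2.49 in exosomes. No test was run on the ratio itself, and how many other gene pairs separate Ang from Con in this way was not counted. In cells GCLC was the subunit whose groups did not overlap. The difference of change between compartments was called for neither subunit (edgeR adjusted p 0.869 for GCLM and 0.710 for GCLC).

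The reads of NFE2L2 were uneven among exosome libraries. Con exosomes held 6, 100 and 85 reads and Ang exosomes 58, 76 and 6, against 842 to 1047 in the far deeper cell libraries. Con library 1 and Ang library 3, at 8.63 and 12.01 CPM, stood more than 4-fold below the median, while the other 4 exosome libraries, at 113 to 147 CPM, were all above the cell range of 76.1 to 100.4 CPM. Without that pair the exosome against cell difference was 0.56. The pair was chosen by the reads of NFE2L2 itself, so this value carries no test. Such drops, over 4-fold below the median, occurred in 381 of 3454 exosome genes (11%) and in 298 of 11570 cell genes (2.58%), counting genes whose median was 40 reads or more. Each exosome library held 57 to 85 of them. HMOX1, with a median of 10.5 exosome reads, was also over 4-fold below its median in Con library 1.

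The genes whose pattern was most like that of NFE2L2 were found by the root mean square difference of centred log2 CPM over the 12 libraries, among 11800 genes. ZNF717, a zinc finger gene, was nearest at 0.343, then RIOX1, a histone demethylase and ribosomal oxygenase, at 0.377, and FAM53C at 0.443, where the median gene stood at 1.47. They were picked by likeness over these same libraries, so exosome reads low where those of NFE2L2 were low follow from that choice. ZNF717 counted 1, 11 and 16 in the Con libraries, then 5, 8 and 1 in the Ang libraries. FAM53C counted 9, 50 and 51 in the Con libraries, then 49, 55 and 3 in the Ang libraries. The genes most like HMOX1 were the cell cycle phosphatase CDC25A (0.262), MZT2A (0.290) and TRIP10 (0.296), with a median of 1.07. With so few exosome reads, a likeness is a description of these libraries only.

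**Figure D4:**
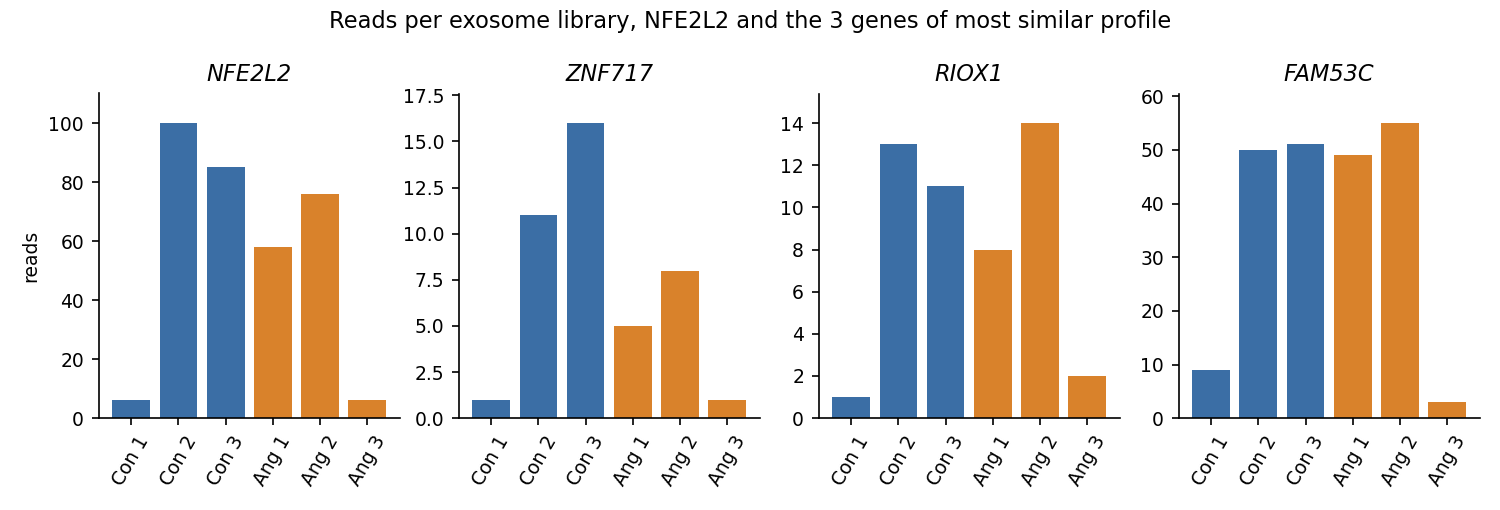
Reads of NFE2L2 and of the 3 genes with the most similar profile in each of the 6 exosome libraries, as bars from 0, on an axis of its own for each gene. Con library 1 and Ang library 3 are the lowest for all 4 genes, with 6 and 6 reads of NFE2L2. The 3 other genes were chosen by likeness over these and the cell libraries, so their low libraries follow from that choice.

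Among the regulators and partners of NRF2, none passed the edgeR test between Ang and Con. In cells 0 of 12 were called and 0 had an unadjusted p under 0.05, and in exosomes 0 of 11 tested, with medians of 0.06 and 0.05. KEAP1, the negative regulator, had 510 to 621 reads per cell library, with a log2 fold change of 0.06 (SE 0.0864) in cells and -0.65 (SE 0.479) in exosomes. BACH1, the competing repressor, had 589, 624 and 313 reads in Con cells and 622, 796 and 731 in Ang cells. Its log2 fold change was 0.47 in cells (SE 0.325) and -0.43 in exosomes (SE 0.398). In CPM, every Ang cell library of BACH1 lay above every Con cell library. In cells, groups did not overlap for 3 of the 12 regulators, all higher in Ang, and for 13.9% of all genes tested. The small MAF partners had values of 0.06 (MAFF), 0.00 (MAFG) and -0.32 (MAFK) in cells and of 0.27, 0.27 and 0.05 in exosomes. SQSTM1, the autophagy receptor that binds KEAP1, had -0.01 in cells and -0.32 in exosomes.

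Between exosomes and cells, 2 of the 12 regulators were higher and 2 lower, with a median of 0.10. Over all genes tested, 17.6% were higher and 19.5% lower. BTRC, a ubiquitin ligase subunit that also targets NRF2, was lower by a log2 value of -1.72 (edgeR adjusted p 0.00433) without overlap. It had 2 to 26 reads per exosome library, and without Con library 2 the value was -2.35. In Con libraries alone the BTRC value was -1.39 and the call was lost (edgeR adjusted p 0.143). GSK3B, the kinase that marks NRF2 for BTRC, was lower at -0.64, and SQSTM1, at 0.69, and MAFK were higher, each with compartments that overlapped. MAFK had a value of 1.63 (edgeR adjusted p 0.00228). KEAP1 (0.10), MAFF (0.11) and MAFG (-0.05) were not called, and KEAP1 and MAFF turned negative by library totals (-0.11 and -0.10). BACH1 had 0.67 (adjusted p 0.0608) and passed as higher without cell library Con 2 (0.0489), without exosome library Ang 1 (0.0262) or with DESeq2 (0.0278).

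The wider antioxidant network was compared with the same fits. Between Ang and Con in cells, 0 of 15 glutathione genes, 0 of 11 thioredoxin and peroxiredoxin genes, 0 of 8 NADPH genes, 0 of 14 detoxifying genes, 0 of 8 heme and iron genes and 0 of 8 other antioxidant genes were called. In exosomes TXNIP alone was called. TXNIP, an inhibitor of thioredoxin, had 126, 165 and 111 reads in Con exosomes and 0, 1 and 0 in Ang exosomes. The summed ratio of Con over Ang was 307, with a counting interval from 54.8 to 12151, and the edgeR adjusted p was 0.00216. In cells TXNIP had a log2 fold change of -0.09 (SE 0.0656, adjusted p 0.843), and the difference between compartments passed the test (adjusted p 1.74e-05). The fitted exosome value of -7.85 depends on the prior count and was -9.91 without Ang library 2, which held the single Ang read. The exosome call was lost with a replicate block (adjusted p 0.0593) and without the pair of exosome libraries low in NFE2L2 (0.11), while the fitted values stayed at -7.90 and -7.47. The mitochondrial superoxide dismutase SOD2 stood at 78.9, 83.2 and 78.2 CPM in Con cells and at 39.6, 29.4 and 57.7 CPM in Ang cells. Every Ang cell library lay below every Con cell library, and the log2 fold change was -0.93 (SE 0.244, unadjusted p 0.0101, edgeR adjusted p 0.795). In exosomes SOD2 stood at 76.3, 64.6 and 96.1 CPM in Con and at 118, 99.2 and 102 CPM in Ang, with every Ang library above every Con library and a log2 fold change of 0.44 (SE 0.310, adjusted p 0.999). The difference of change between compartments was 1.35 (SE 0.373, edgeR adjusted p 0.440), and it passed the test with DESeq2 (adjusted p 0.0182). The other genes named from these 6 lists had log2 fold changes from -0.16 to 0.11 in cells. The ferritin light chain FTL had 0.11 in cells and 0.08 in exosomes, and the lipid peroxide reducer GPX4 -0.04 and 0.42. The pentose phosphate enzyme TKT had 0.02 and -0.41, the export pump ABCC1 -0.16 and 0.26, and the superoxide dismutase SOD1 0.07 and -0.18. Groups did not overlap for FTL in cells (Ang higher, unadjusted edgeR p 0.0399). In exosomes they did not overlap for GPX4 (Ang higher, unadjusted edgeR p 0.0121) and TKT (Ang lower, 0.0145). The edgeR adjusted p was 0.795 for FTL in cells and 0.999 for GPX4 and TKT in exosomes. Beside these genes and SOD2, groups did not overlap for 13.9% of all genes tested in cells and 10.8% in exosomes.

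Between exosomes and cells these lists moved in different directions from gene to gene. The counts of each list stand beside shares of 17.6% higher and 19.5% lower over all genes tested. For glutathione supply and use, 3 of 14 tested genes were higher and 2 lower (median -0.37). SLC7A11, the cystine importer, was lower by a log2 value of -1.24 (edgeR adjusted p 0.000281), and GPX4 was higher by 0.68 (3.4e-05). For thioredoxin and peroxiredoxin genes, 4 of 11 were higher and 1 lower (median 0.12). The higher genes included thioredoxin itself, TXN at 1.03 and the mitochondrial TXN2 at 0.78, and the peroxiredoxin PRDX5 at 0.64. The lower gene was TXNIP, with 0 to 242 CPM in exosomes and 322 to 373 CPM in cells. Its fitted value of -4.91 depends on the prior count because of the Ang exosomes, and in Con libraries alone the value was -0.84 (adjusted p 0.0157).

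NADPH supply held 0 higher and 1 lower of 8 (median -0.03), the lower gene being the pentose phosphate dehydrogenase PGD at -0.92. Detoxifying enzymes and export held 2 higher and 2 lower of 14 (median -0.07), with the export pump ABCC4 at -1.14. Heme and iron targets held 3 higher and 2 lower of 8 (median 0.07). Both ferritin chains were higher without overlap: FTH1 by 1.29 (SE 0.04996, edgeR adjusted p 2.33e-09) and FTL by 0.70 (SE 0.0529, adjusted p 8.41e-07). The reductase BLVRB was higher by 0.94. Its call was lost in Con libraries alone (edgeR adjusted p 0.0647) and in Ang libraries alone (0.102). The porphyrin transporter ABCB6 was lower by a log2 value of -3.09 on 0 to 6 exosome reads, and stood at -3.81 without exosome library Con 3 and at -6.38 without Ang 2. Other antioxidant enzymes held 3 higher and 0 lower of 8 (median 0.28), with GPX1 at 0.76 and SOD1 at 0.54. By library totals the counts were 1 higher and 6 lower for glutathione, 4 and 3 for thioredoxin, and 2 higher and 4 lower for the regulators. With that scaling, 1546 of 11811 genes tested were higher and 3318 lower. FTH1 and FTL have many near-identical pseudogenes, and how such reads were shared is not given in the sources used here.

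**Figure D5:**
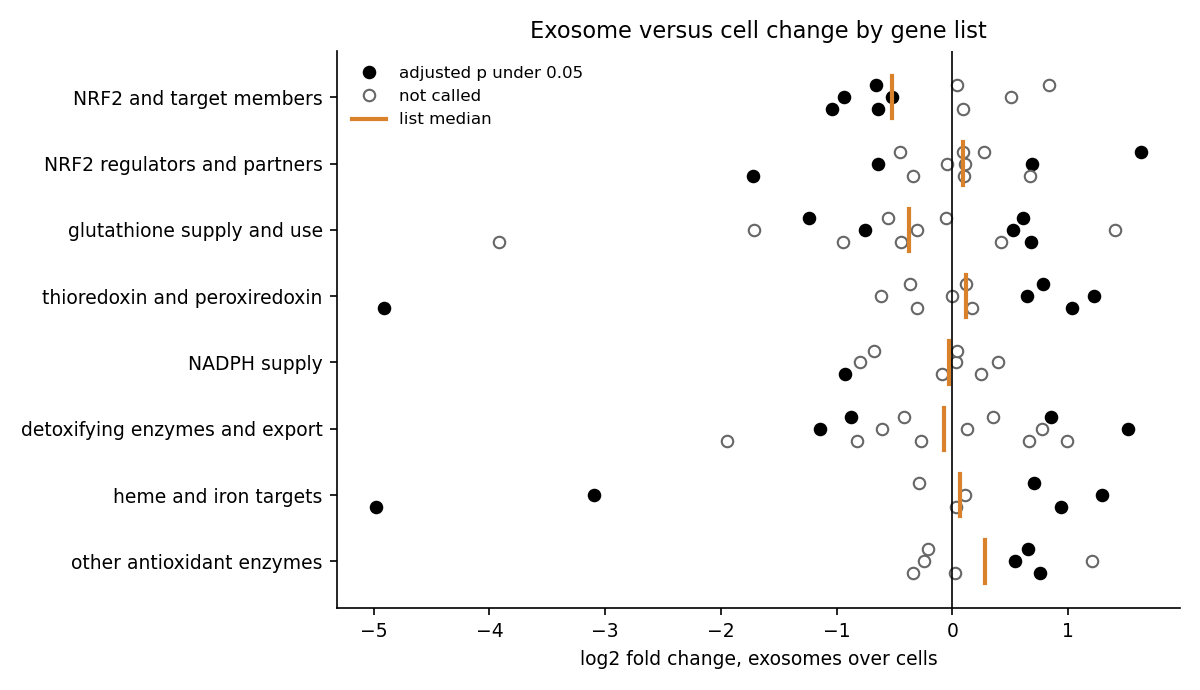
Log2 difference of exosomes over cells for every tested gene of the 9 NRF2 genes and of 7 lists of related genes, filled where the edgeR adjusted p was under 0.05, with the list median as a vertical bar. Among the 9 genes the 5 filled points all lie below 0, while the thioredoxin, heme and iron, and glutathione lists hold filled points on both sides.

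Circular RNAs, counted by reads across a back-splice junction, were listed for 2 of the 9 genes. The share of all genes that held a junction was not counted. The files listed 5179 junctions in cells and 939 in exosomes, of which 4 lay inside 2 of the 9 genes. NFE2L2 (GRCh38, chromosome 2, 177227595 to 177392697, minus strand) held a junction from 177231889 to 177234271 with 8 reads in Ang cell library 2. TXNRD1 (chromosome 12, 104215779 to 104350305, plus strand) held 3 junctions, of 2 and 3 reads in 1 Ang cell library each and of 3 reads in Ang exosome library 1. All 4 had a listed count of 0 in the other libraries of their compartment. Only the TXNRD1 junctions of 3 reads had both ends at annotated exon ends. The other genes lie, in GENCODE release 29, at chromosome 22, 35380361 to 35394214 (HMOX1), chromosome 16, 69706996 to 69726951 (NQO1), chromosome 1, 93885205 to 93909456 (GCLM) and chromosome 6, 53497341 to 53616970 (GCLC). SRXN1 lies at chromosome 20, 646615 to 653370, PRDX1 at chromosome 1, 45511036 to 45523047, and ME1 at chromosome 6, 83210389 to 83431071. Other genes on the same strand cover 17.6% of the NFE2L2 exon bases, and opposite-strand genes cover 24.9% of those of PRDX1 and 17.7% of those of NQO1.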

How the data were processed

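The deposited values of the 12 libraries are whole-number counts of reads for each Ensembl gene and each back-splice junction, as the file headers show. GRCh38, HISAT2 and StringTie are named in the submitters' processing notes. How reads were counted, whether strand was used, which annotation release and which circular RNA caller served is not given in the sources used here. Per the labels' protocols, cell RNA was extracted with miRNeasy Micro and made into libraries with a VAHTS Universal kit, and exosome RNA with exoRNeasy Maxi and a SMARTer Stranded Total RNA kit. The smallest sum of a gene over 6 libraries was 7 reads.

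Counts were tested with edgeR 4.0.16 in R 4.3.3 (quasi-likelihood F test, robust, trimmed mean of M-values scaling, filterByExpr minimum count 10, minimum total 15). Tests were two-sided, adjusted by Benjamini-Hochberg over all genes tested, with a threshold of 0.05. Fits used the 6 cell libraries, the 6 exosome libraries, or all 12, with 11940 genes shared by both compartments. Printed CPM and RPKM values of genes carry the scaling of the 12-library fit, and marker sums that of their compartment. Overlap was judged in the scaling of each fit. Alternatives were DESeq2 1.42.0, other scalings, no filter, a replicate block, thinned cell libraries, Con or Ang libraries alone, and leaving out each library. Scripts were tested on simulated data. Libraries of a group differed beyond sampling noise (chi-square per degree of freedom 6.96 to 24.6), so none were merged.

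The 9 genes and all lists were chosen with earlier results of these data known. The naming rule took all 9 genes and KEAP1, BACH1, MAFF, MAFG and MAFK. From each list it took up to 4 called genes without overlap, by size of change, or up to 2 of the most abundant where none passed. GSK3B and SQSTM1 between exosomes and cells were named after their values were seen. SOD2 between Ang and Con in exosomes was also named outside this rule. The 3 genes most like NFE2L2 and HMOX1 came from the root mean square difference, with a prior count of 2. Deviations of same-numbered libraries were barely correlated (from -0.0438 to 0.0166, against -0.015 to 0.0365 for other numbers), so numbers were not taken as pairs. Small RNAs were not analysed here.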

Additional observations from a re-analysis of the deposited data

Results flagged for a closer look

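For TXNIP, the change from Con to Ang was lower in exosomes than in cells by a log2 value of -8.13 (edgeR adjusted p 1.74e-05). That fitted size depends on the prior count, since the 3 Ang exosome libraries held 0, 1 and 0 reads. It was -13.15 without Ang library 2, which held that read. The libraries of Con and Ang cells overlapped.

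The GCLM to GCLC ratio had differences of opposite sign in cells and in exosomes. The mean log2 ratio in Ang minus that in Con was -0.2051 in cells, from 0.82 to 0.61, with every Ang library below every Con library. It was 1.208 in exosomes, from 0.82 to 2.02, with every Ang library above every Con library. The difference between the compartments was not tested, and how many other gene pairs separate in this way was not counted. The exosome ratios rest on 6 to 25 reads per gene and library. Their separation is narrow, with ratios of 2.58 in Con library 3 and 2.66 in Ang library 1.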

How the results depend on the processing

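No alternative called any of the 9 genes between Ang and Con in cells (99 values), between Ang and Con in exosomes (108) or for the difference between compartments (171). Of these values 7, 12 and 9 reversed in sign. Of 189 values between exosomes and cells, 151 kept direction and call, 20 lost the call, 8 gained it and 10 reversed. Of the 9 genes, 3 to 7 were called with a library left out, 3 in Con libraries only and 3 in Ang libraries only. In the 12-library fits, 10238 to 10250 genes were tested with a cell library left out, against 11811; the cause of the changed calls was not tested. Genes called were 47 with DESeq2 and 0 to 3 with a library left out in cells (3 without Con 3). In exosomes they were 3 without the filter, 16 with DESeq2 and 1 to 4 with a library left out (2 without Con 2, 4 without Ang 1, 3 without Ang 3). For the difference they were 368 with DESeq2 and 1 to 17 with a library left out. They were 1 without cell library Con 1 or any Ang cell library, 8 and 11 without exosome library Con 1 or Con 2, and 17, 12 and 12 without exosome library Ang 1, 2 or 3. They were 55 without exosome libraries Con 1 and Ang 3 together, a pair chosen after seeing the data. Between exosomes and cells, 2395 genes were called in Con libraries only and 2126 in Ang libraries only. Besides those of GCLC, ME1 and PRDX1, calls of named genes were lost in these smaller sets. In Con libraries only these were BTRC (edgeR adjusted p 0.143), BLVRB (0.065), GPX1 (0.068) and PGD (0.053). In Ang libraries only they were ABCC4 (0.095), BLVRB (0.102), MAFK (0.056), TXN (0.129), TXN2 (0.141), PRDX5 (0.063) and SOD1 (0.069).

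With a replicate block, 0 genes were called between Ang and Con in exosomes, 3893 between exosomes and cells and 1 for the difference. The block ended the calls of GCLC between exosomes and cells and of TXNIP in exosomes and no other call of a named gene. Its sign reversals were MAFG in cells (0.016), MAFK (-0.054), NFE2L2 (0.029) and TXNRD1 (-0.0011) in exosomes, and NFE2L2 between exosomes and cells (-0.053). The labels do not say whether same-numbered libraries are pairs, and the small correlations of their deviations cannot decide it. Why calls were lost under the block was not tested.

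By library totals, MAFG had 0.0035 in cells, TXNRD1 -0.0017 in exosomes, and GCLM -0.12, KEAP1 -0.11, MAFF -0.10 and NFE2L2 -0.18 between exosomes and cells. TXNRD1 had -0.0024 in exosomes without the filter. Without exosome libraries Con 1 and Ang 3, FTL had -0.0072 and TXNRD1 -0.15 in exosomes, and GCLM -0.046, KEAP1 -0.26 and MAFG 0.032 between exosomes and cells. In Con libraries only GCLM had -0.14, and in Ang libraries only KEAP1 had -0.25 and MAFG 0.091. With thinned cell libraries MAFG had 0.069, and the NFE2L2 difference of change was 0.11. The other reversals came with a library, or that pair, left out. In cells, ABCC1 ran from -0.30 to 0.043, HMOX1 from -0.087 to 0.082, KEAP1 from -0.016 to 0.11, MAFF from -0.011 to 0.13, MAFG from -0.15 to 0.099, ME1 from -0.11 to 0.12, NFE2L2 from -0.13 to 0.073, SQSTM1 from -0.11 to 0.060 and TKT from -0.029 to 0.064. In exosomes, FTL ran from -0.0072 to 0.12, MAFF from -0.085 to 0.59, MAFK from -0.65 to 0.63, NFE2L2 from -0.63 to 0.43, NQO1 from -0.054 to 0.25 and TXNRD1 from -0.15 to 0.0998. Between exosomes and cells, GCLM ran from -0.0496 to 0.25, KEAP1 from -0.26 to 0.25, MAFF from -0.068 to 0.33, MAFG from -0.099 to 0.032 and NFE2L2 from -0.21 to 0.56. The difference of change ran from -0.62 to 0.44 for NFE2L2 and from -0.15 to 0.17 for NQO1. HMOX1, GCLC and GCLM held 3 to 25 reads per exosome library.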
